A study of Homo sapiens with 121 samples.

Results

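The 8 genes described here encode the DNA methyltransferases DNMT1, DNMT3A and DNMT3B, their catalytically inactive relative DNMT3L, the methylation maintenance factor UHRF1 and the 3 TET dioxygenases TET1, TET2 and TET3. They were taken by gene name from 25610 genes read in the expression table. The study applied scT&R-seq, in which the polyadenylated RNA of a single cell is captured for sequencing and its genomic DNA is kept for a telomere measurement, to the human embryonic stem cell (hESC) line WA26. All cells came from this 1 line, grown without feeder cells in E8 medium on Matrigel, and no treatment, genotype or time separated them. By their labels, 121 single cells fall into a long telomere group of 81, a medium group of 25 and a short group of 15. No culture, plate or sequencing run is named for any cell.

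Methylation of cytosine in CpG dinucleotides is written by DNMT3A and DNMT3B and copied to the new strand after replication by DNMT1, which UHRF1 brings to half-methylated DNA. DNMT3L has no catalytic activity and stimulates the de novo enzymes. It is known from germ cells and early embryos. The TET enzymes oxidize methylcytosine, a step on the way to its removal. Primed human pluripotent cells are known for abundant DNMT3B and TET1, and DNMT3B is widely used as a marker of undifferentiated hESCs.

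On GRCh37, DNMT1 spans chr19:10244018-10341962 on the minus strand and UHRF1 chr19:4903092-4962165 on the plus strand. DNMT3A lies at chr2:25450724-25565459 on the minus strand, DNMT3B at chr20:31350191-31397165 on the plus strand and DNMT3L at chr21:45666222-45682099 on the minus strand. TET1 occupies chr10:70320094-70454244, TET2 chr4:106067032-106200973 and TET3 chr2:74212037-74335303, all on the plus strand. The annotation places an antisense transcript across TET2 (TET2-AS1) and across DNMT3L (DNMT3L-AS1), and smaller opposite-strand entries within DNMT1 and TET3. Libraries of this type carry no strand information, so reads from such pairs cannot be told apart. DNMT3A and TET1 each have 1 named pseudogene, DNMT3AP1 and TET1P1, that could share reads with them.

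The start windows of DNMT1 and UHRF1 are shown for their correlation with an S phase score. It was the highest among the members in the 68 cells of more than 8000 detected genes. The only DNMT3B window at hand is shown because DNMT3B was the most abundant member and this window differs in CpG content. Each window is 300 bases of RefSeq sequence on GRCh38.p14, from 250 bases before to 50 bases after the annotated start, in the direction of the gene. Capitals mark letters of the type recognised by E2F factors, which control genes of S phase.
DNMT1, chr19:10194904-10195203, minus strand: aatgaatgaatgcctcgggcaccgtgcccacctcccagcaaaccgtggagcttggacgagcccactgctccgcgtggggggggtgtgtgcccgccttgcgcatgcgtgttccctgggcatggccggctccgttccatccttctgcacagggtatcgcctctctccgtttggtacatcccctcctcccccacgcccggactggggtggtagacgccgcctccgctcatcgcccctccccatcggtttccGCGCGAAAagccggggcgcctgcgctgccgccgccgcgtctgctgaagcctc
UHRF1, chr19:4909251-4909550, plus strand: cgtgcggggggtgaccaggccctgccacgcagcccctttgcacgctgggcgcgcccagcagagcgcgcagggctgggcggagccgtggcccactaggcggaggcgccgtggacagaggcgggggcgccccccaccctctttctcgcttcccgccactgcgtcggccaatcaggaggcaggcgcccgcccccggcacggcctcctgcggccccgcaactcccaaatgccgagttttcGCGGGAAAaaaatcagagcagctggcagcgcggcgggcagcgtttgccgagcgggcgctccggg
DNMT3B, chr20:32779602-32779901, plus strand: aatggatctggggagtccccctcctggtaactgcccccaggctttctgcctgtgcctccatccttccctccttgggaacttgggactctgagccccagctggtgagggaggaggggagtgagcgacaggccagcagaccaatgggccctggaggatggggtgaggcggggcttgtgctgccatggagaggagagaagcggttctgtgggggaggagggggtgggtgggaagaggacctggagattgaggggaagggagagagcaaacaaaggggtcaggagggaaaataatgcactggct
The letters searched on both strands were TTTCCCGC, TTTCGCGC, TTTGCCGC and TTTGGCGC, each of which can overlap its own reverse complement at its last letters. At least 1 of them stood in 3.31% of 35116 RefSeq windows of the same length. The table held 18 windows for 7 of the members and none for DNMT3L. The letters occurred in the single DNMT1 window, at base 249, and in 2 of the UHRF1 windows, at base 237 of the one printed and at base 91 of the one at chr19:4909894-4910193. They occurred in no other member's window. The DNMT1 window held 30 CpG dinucleotides and the printed UHRF1 window 36, against a median of 14 over all windows (quartiles 4 and 28). Member windows without the letters ran from 3 in that of DNMT3B to 46 in 1 of DNMT3A and 1 of UHRF1. DNMT3B has 21 annotated transcripts and a single window here. Its CpG count and lack of letters describe that start only and may not hold for other starts of the gene. A match of letters is a description of the sequence and no evidence of binding.

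Values are TPM (transcript abundance scaled to a fixed sum per cell) or log2(TPM + 1). TPM is by its definition divided by transcript length, on which the order of levels between genes rests. The sources differ on how the table was made, and 1 description names scaling by library size only. The smallest non-zero value of a gene was lower for longer transcripts (Spearman's rho of -0.44 across 12422 coding genes, which are not independent), with a median of 0.21 TPM in the shortest 25% and 0.06 in the longest 25%. A TPM above 1 was taken as detection of a gene. Detected genes numbered from 4002 to 11515 in the long group, from 4189 to 10481 in the medium and from 2030 to 10045 in the short group. More than 8000 were found in 68 cells, termed gene-rich below (51 long, 14 medium, 3 short), while the other 53 are termed gene-poor. The depth of a cell cannot be read from TPM. Each group counts as 1 sample, cells are not replicates, and differences between groups are given without a test. POU5F1, LIN28A and DPPA4, markers of pluripotent stem cells, were detected in all 121 cells, and the other 5 markers of that list in at least 93.4%. Of the 16 markers of endoderm, mesoderm, neural ectoderm and trophoblast and the 4 of fibroblasts, 4 reached a mean TPM of 1 (MIXL1, PAX6, MAP2 and KRT7, the highest 7.92), and GATA6, HAND1 and LUM were listed at 0 in every cell. The median of the summed level was at most 2.54 TPM in any group for any of these lists. Single cells held more: MAP2 was detected in 43.8% of cells, MIXL1 and KRT7 each in 38.0% and PAX6 in 27.3%. The highest TPM was 131 for MAP2, 104 for MIXL1, 207 for KRT7 and 114 for PAX6.

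DNMT3B was the most abundant of the 8 genes, with a mean of 132 TPM over all cells, followed by DNMT3A with 44.8, DNMT1 with 30.0, TET1 with 16.4 and UHRF1 with 10.7. TET3 had a mean TPM of 1.2, TET2 of 0.261 and DNMT3L of 0.154. By mean TPM, DNMT3B ranked 1077 and TET1 4697 among all genes, and DNMT3L ranked 17453. The same order of mean log2 levels was seen in each telomere length group. Within cells, DNMT3B exceeded DNMT3A in 108 of 121, DNMT3A exceeded DNMT1 in 85, DNMT1 exceeded TET1 in 84 and TET1 exceeded UHRF1 in 81. The mean log2 difference within a cell was 1.70 ± 1.53 (SD, n = 121 cells) between DNMT3B and DNMT3A, the one step among the first 4 that was larger than its spread. It was 0.65 ± 1.99 between DNMT3A and DNMT1, 0.96 ± 2.27 between DNMT1 and TET1 and 0.86 ± 2.35 between TET1 and UHRF1, so these neighbours did not differ beyond their spread. The step from UHRF1 to TET3, 1.76 ± 2.04, that from TET3 to TET2, 0.49 ± 0.98, and that from TET2 to DNMT3L, 0.20 ± 0.46, were also smaller than the spread.

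The number of members detected per cell ran from 1 to 8, with a median of 5. All of DNMT1, UHRF1, DNMT3A, DNMT3B and TET1 were detected together in 76 of 121 cells (62.8%), and in 58 of the 68 gene-rich cells. In 113 cells both DNMT3A and DNMT3B were detected, and in 1 cell neither. No TET gene was detected in 19 cells, all of them among the 53 gene-poor cells, and all 3 TET genes were detected in 3 cells. DNMT1 without UHRF1 was seen in 29 cells and UHRF1 without DNMT1 in 5.

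**Figure D1:**
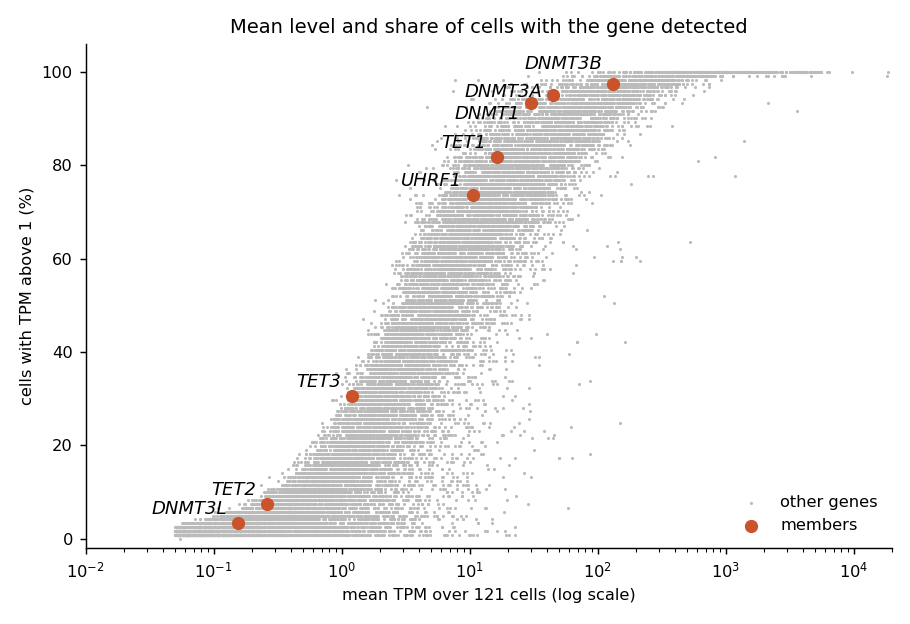
Mean TPM over 121 cells (horizontal axis, log scale) against the percentage of cells with TPM above 1 (vertical axis) for the 8 members (red) and the other genes from a mean TPM of 0.05 upwards (grey). DNMT3B, DNMT3A, DNMT1 and TET1 lie at or above 81.8% of cells and TET3, TET2 and DNMT3L at or below 30.6%.

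The spread between cells was compared with that of genes whose mean TPM was within 2-fold of the member. DNMT3B had a coefficient of variation of 52.9%, and 97.2% of 1241 such genes had a higher one. TET1 had a coefficient of 86.3%, lower than that of 96.8% of 3852 genes of like level, and DNMT3A one of 91.7%, lower than that of 76.1% of 2357. DNMT1 and UHRF1 were nearer the middle, with 112% and 151% and a higher coefficient in 64.6% and 61.0% of their like genes. In gene-rich cells the coefficients were 31.2% for DNMT3B, 39.8% for DNMT3A, 48.0% for DNMT1, 63.2% for TET1 and 82.3% for UHRF1. There a higher coefficient was found in 96.2% of like genes for DNMT3A, 95.0% for DNMT1, 93.0% for DNMT3B, 79.8% for UHRF1 and 76.7% for TET1, so the order of TET1 and DNMT1 was the opposite of that over all cells. DNMT3L was the most uneven member over all cells, with a coefficient of 852%, since 117 of 121 cells did not have it detected. Among 2338 genes of like level, 32.0% had a higher one. Over all cells TET2 had a coefficient of 197% and TET3 one of 164%, lower than those of 99.8% and 98.6% of their like genes.

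DNMT1, the maintenance methyltransferase, had a lowest, median and highest TPM of 0, 23.3 and 245 in the long group. In the medium group these were 4.34, 22.9 and 120, and in the short group 0.14, 14.7 and 224. The groups overlapped over nearly their whole range, and the highest values, 245 in a long and 224 in a short telomere cell, stood in cells with 4002 and 2030 detected genes. The mean log2 level was 4.36 ± 1.49 (SD, n = 81) in the long group, 4.67 ± 1.05 (SD, n = 25) in the medium and 3.65 ± 2.02 (SD, n = 15) in the short group. The long telomere cell had the higher DNMT1 in 65.9% of all long-short pairs. In gene-rich cells DNMT1 was detected in every cell, with TPM from 2.68 to 57.8, and in the other cells in 84.9%.

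UHRF1, which reads half-methylated CpG and recruits DNMT1, had a lowest, median and highest TPM of 0, 6.31 and 75.3 in the long group. They were 0, 4.81 and 75.8 in the medium and 0, 2.02 and 93.7 in the short group. All 3 groups thus held cells with no UHRF1 and cells with at least 75.3 TPM. It was detected in 60 of 81 long telomere cells (74.1%; 95% exact binomial interval 63.1% to 83.2%, which covers the counting of cells only), in 19 of 25 medium (76.0%, 54.9% to 90.6%) and in 10 of 15 short telomere cells (66.7%, 38.4% to 88.2%). The mean log2 level was 2.58 ± 1.73 in the long group, 2.58 ± 1.77 in the medium and 2.04 ± 2.05 in the short group. In gene-rich cells the long and short means were 2.68 and 2.67.

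DNMT3A had a lowest, median and highest TPM of 0, 35.1 and 233 in the long group, 0, 35.9 and 290 in the medium and 0.07, 36.6 and 119 in the short group. The medians were thus nearly equal, while the interquartile range was wider in the short group (6.79 to 62.7) than in the long group (28.8 to 48.4). The mean log2 level was 5.12 ± 1.19 in the long group, 4.89 ± 1.91 in the medium and 4.41 ± 2.16 in the short group, and the long cell was the higher one in 51.3% of long-short pairs. In gene-rich cells, every cell had at least 17.2 TPM of DNMT3A, and the mean of the 3 short telomere cells was the highest of the groups (5.63 ± 0.86, against 5.21 ± 0.48 in the long group).

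DNMT3B, the other de novo enzyme, had a lowest, median and highest TPM of 0.65, 143 and 405 in the long group. They were 22.4, 115 and 259 in the medium and 0.65, 65.1 and 329 in the short group. High values occurred in every group, whereas low ones were mostly in the short group: 4 of 15 short and 1 of 81 long telomere cells had a TPM of 10 or less. The mean log2 level was 7.02 ± 0.99 in the long group, 6.53 ± 0.83 in the medium and 5.07 ± 2.63 in the short group, with the long cell higher in 71.4% of long-short pairs. Among the 4 low short telomere cells, 2 had 2577 and 2030 detected genes, a POU5F1 of 489 and 332 TPM and a NANOG of 0.23 and 0.13 TPM. The other 2 had 5392 and 6046 detected genes, a POU5F1 of 664 and 427 TPM and a NANOG of 11.1 and 79.1 TPM. The low long telomere cell had 4366 detected genes, a POU5F1 of 1537 TPM and a NANOG of 702 TPM, the highest of all cells. Of the pluripotent stem cell markers, NANOG had the highest long minus short difference (3.21) and LIN28A the lowest (0.29). In gene-rich cells DNMT3B was at least 61.7 TPM in every cell, and its mean was 7.19 ± 0.43 for the 51 cells of the long group, 6.79 ± 0.44 for the 14 of the medium and 6.94 ± 0.60 for the 3 of the short group.

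DNMT3L was listed at 0 in 117 of 121 cells. It was above TPM 0 in 2 long, 1 medium and 1 short telomere cell, all with more than 8000 detected genes. The values were 14.3 TPM in 1 short telomere cell, with 8210 detected genes, 2.03 and 1.32 in 2 long telomere cells and 1.07 in a medium telomere cell. The first of these cells also held the second highest TET2 of all cells (2.57 TPM) and a DNMT3A of 82.8 TPM, above which stood 11 cells. Its POU5F1 was 875 TPM, above which stood 85 cells. Across the pluripotent stem cell markers the number of higher cells ran from 2 for LIN28A (433 TPM) to 101 for NANOG (59.0 TPM). All 6 naive pluripotency markers (KLF17, DPPA3, DPPA5, KLF4, TFCP2L1 and KLF5) were listed at 0 in it. The median of each of the 6 over all cells was also 0, with from 12 (KLF5) to 53 (DPPA5) cells above 0. The higher DNMT3L mean of the short telomere group came from this cell, as the other short telomere cells were all listed at 0.

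TET1, the main TET gene of these cells, had a lowest, median and highest TPM of 0, 17.8 and 65.8 in the long group. They were 0, 10.6 and 53.0 in the medium and 0, 3.64 and 52.3 in the short group. The upper ends of the groups were close to each other, and each group held cells at 0. TET1 was detected in 71 of 81 long (87.7%; 78.5% to 93.9%), 20 of 25 medium (80.0%; 59.3% to 93.2%) and 8 of 15 short telomere cells (53.3%; 26.6% to 78.7%). Above TPM 0 it was in 74 long, 23 medium and 10 short telomere cells. The mean log2 level was 3.64 ± 1.58 in the long group, 3.13 ± 1.77 in the medium and 2.33 ± 2.39 in the short group, and the long cell was higher in 63.5% of long-short pairs. In gene-rich cells it was detected in 67 of 68, and the mean was 4.17 ± 0.96 in long and 4.57 ± 0.89 in the 3 short telomere cells.

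TET2 was near the limit of detection, with a highest TPM of 3.40 in the long group, 0.45 in the medium and 2.57 in the short group and a median of 0.10 in long and 0 in the medium and short telomere cells. It was above TPM 1 in 6 long, 0 medium and 3 short telomere cells, where 0 of 25 allows a share of up to 13.7% by the exact interval. TET3 had a median of 0.34 TPM in long and 0 in the medium and short telomere cells, and a highest TPM of 11.1 in the long, 6.25 in the medium and 5.61 in the short group. It was detected in 27 of 81 long, 5 of 25 medium and 5 of 15 short telomere cells. Of its 37 positive cells 30 had more than 8000 detected genes, among them all 3 short telomere cells of that set.

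**Figure D2:**
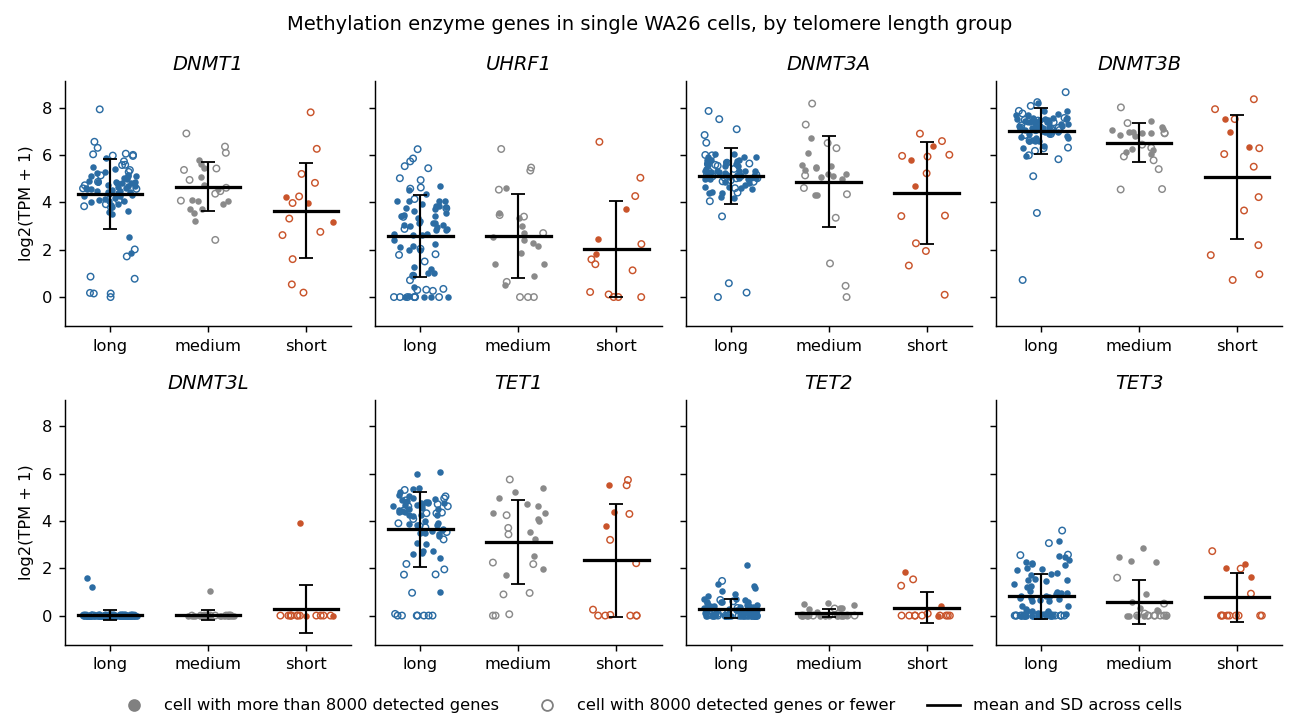
Level of each member as log2(TPM + 1) in every cell of the long, medium and short telomere groups, with the mean and SD across cells in black. Filled points are gene-rich cells (more than 8000 detected genes) and open points gene-poor cells. The filled points of DNMT3B and DNMT3A lie close together in all 3 groups, and the low values of DNMT3B and TET1 in the short group are open points.

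The long and short telomere groups are compared by the difference of their mean log2(TPM + 1), and a gene was called when this difference was at least 1 in either direction. Among 13439 genes whose mean TPM reached 1, 38.9% were called higher in the long and 3.75% higher in the short group. The median difference over these genes was 0.70, and 79.2% lay above 0. Of the 6 members in that set (DNMT3L and TET2 were below the minimum), DNMT3B with a difference of 1.95 and TET1 with 1.32 were called higher in the long group and none in the short group. The median over these 6 was 0.71. DNMT1 (0.71), DNMT3A (0.71) and UHRF1 (0.54) lay near the median of all genes, and TET3 (0.04) lay below it. After rescaling by the median ratio, DNMT1 (0.019) and DNMT3A (0.045) lay below the median of all genes, which was then 0.47. Without rescaling, the difference of the group medians of DNMT3A, taken in place of the means, was -0.06. TET1 was not called with a pseudocount of 10 (0.42), and DNMT1 was called (1.25) without the 11 cells under 4500 detected genes. DNMT3B was higher than 87.6% of the genes tested and TET1 higher than 71.8%, so the share of members called was not above the background. When each cell was left out in turn, DNMT3B ran from 1.64 to 2.19 and TET1 from 1.15 to 1.56, while DNMT1 passed 1 (1.01) without the short telomere cell of 2030 detected genes.

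The number of detected genes moved with this comparison, and its part in it was not tested. In gene-rich cells, 11.4% of genes were called higher in the 51 long and 9.37% higher in the 3 short telomere cells, with a median difference of 0.08. No member of that set was called. DNMT3B had a difference of 0.24, and that of TET1 turned to -0.40. TET3 (-0.89) and DNMT3A (-0.42) were also higher in the short telomere cells, of which there were 3, and DNMT1 (0.70) was higher in the long. In gene-poor cells, 26.4% of genes were called higher in the 30 long and 7.37% higher in the 12 short telomere cells. Here DNMT3B was called, with a difference of 2.15 that exceeded 93.1% of the genes tested, and TET1 (0.98) and DNMT3A (0.87) stayed below 1. With the number of detected genes as a linear term over 96 cells, the difference was 1.5 for DNMT3B, against a median of 0.14 over all genes, and exceeded 94.3% of them. It was 0.53 for DNMT1, 0.50 for DNMT3A, 0.29 for TET1 and -0.46 for TET3 under the same term.

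**Figure D3:**
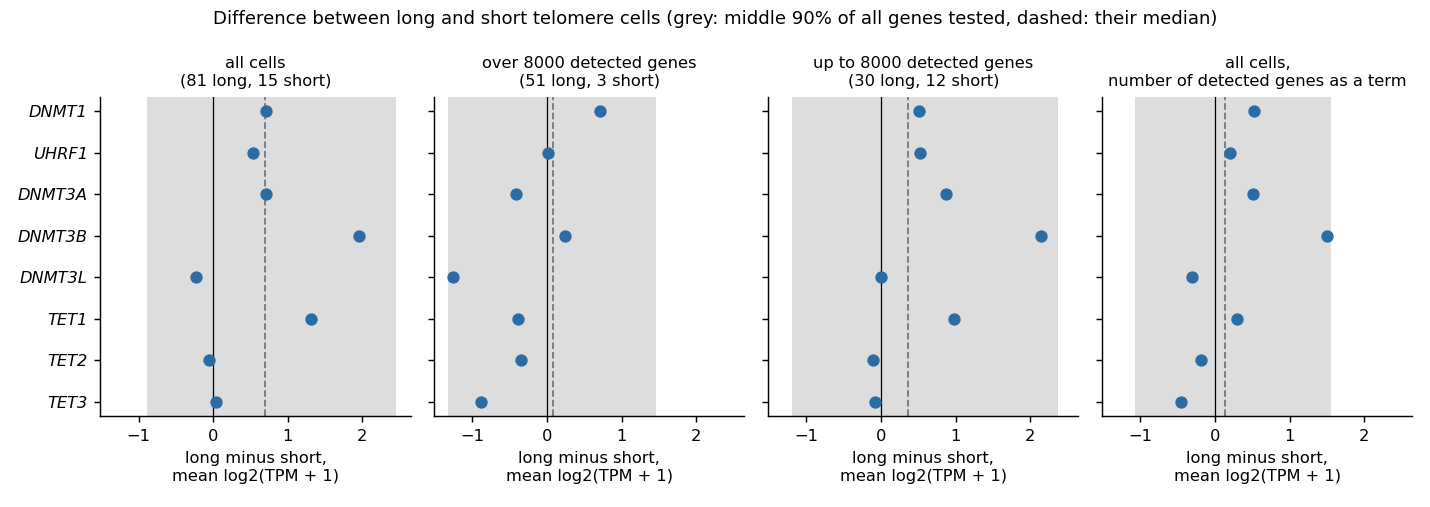
Difference of mean log2(TPM + 1) between long and short telomere cells for each member (points) in all cells, in cells above and up to 8000 detected genes and with the number of detected genes as a linear term. The grey band holds the middle 90% of the genes tested and the dashed line is their median. DNMT3B lies at 1.95, 0.24, 2.15 and 1.5 in the 4 panels.

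Long and medium telomere cells were closer to each other. Over all genes, 0.893% were called higher in long and 0.387% higher in the medium group, and no member was. The differences were 0.52 for TET1, 0.49 for DNMT3B, 0.23 for DNMT3A and TET3, 0 within rounding for UHRF1 (2.58 in both groups) and -0.31 for DNMT1. The long cell had the higher DNMT3B in 72.9% of long-medium pairs. Between medium and short telomere cells, 33.8% of genes were called higher in the medium and 4.11% higher in the short group. DNMT3B (1.46) and DNMT1 (1.02) were called higher in the medium group, with TET1 at 0.80. Leaving out 1 short telomere cell moved DNMT1 to 0.77 and TET1 to 1.04. The comparisons share cells, so their values are not independent of each other.

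The balance of the catalytic de novo genes was read as the log2 ratio of DNMT3B to DNMT3A within a cell. It had a mean of 1.90 ± 1.28 in the long group, 1.64 ± 1.84 in the medium and 0.67 ± 1.83 in the short group, and DNMT3B was the higher one in 76 of 81, 22 of 25 and 10 of 15 cells. In all 68 gene-rich cells DNMT3B exceeded DNMT3A, with a lowest log2 ratio of 0.25. The mean there was 1.98 ± 0.64 in the long group, 1.46 ± 0.56 in the medium and 1.31 ± 1.31 in the short group, the last from values of 0.53, 0.58 and 2.83. In gene-poor cells it was 1.78 ± 1.95 in long and 0.50 ± 1.96 in the short group. Long and short groups differed by less than the SD within the short group in each of these sets. In gene-rich cells they differed by more than the SD of the long group (0.64), and the SD of the short group rests on 3 cells there.

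**Figure D4:**
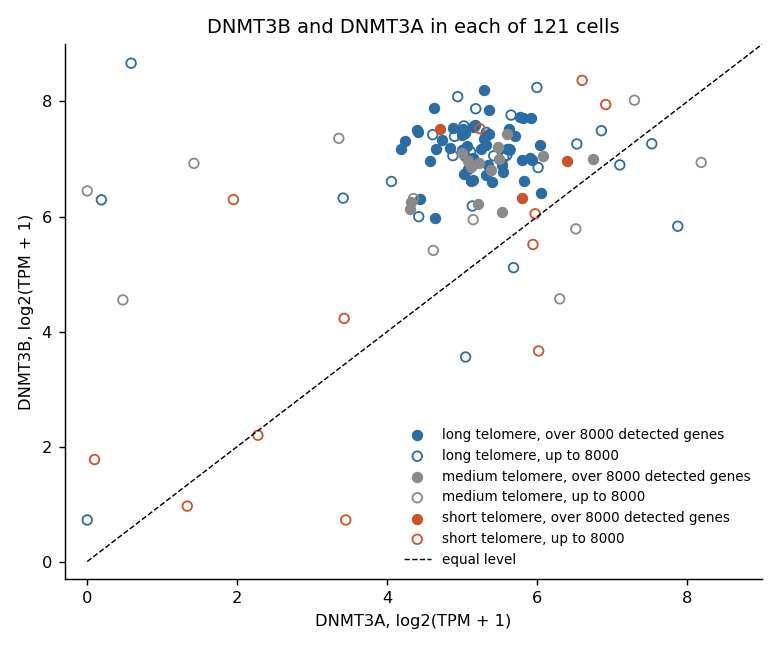
DNMT3B against DNMT3A, both as log2(TPM + 1), with 1 point per cell coloured by telomere length group and filled where the cell had more than 8000 detected genes. The dashed line marks equal levels. All 68 filled points lie above the line, and 13 open points lie below it.

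Relations between members across cells are given as Spearman's rho on TPM, as a description with no test, since all cells share 1 table and their number of detected genes moves with most genes. Over all 121 cells the rho with the number of detected genes was 0.51 for TET1, 0.56 for TET3, 0.42 for TET2, 0.23 for DNMT3B, 0.12 for UHRF1, -0.03 for DNMT3A and -0.07 for DNMT1, against a median of 0.34 over all genes. Among the 68 gene-rich cells it was 0.42 for TET1, above the 95th percentile of all genes (0.34), and -0.22 for DNMT1 and -0.28 for DNMT3A, both below the 5th percentile (-0.18). In the gene-rich cells TET1 on one side and DNMT1 and DNMT3A on the other thus lay at opposite ends of the range of all genes. Among gene-poor cells the rho with the number of detected genes was 0.29 for TET1, 0.13 for DNMT1 and 0.04 for DNMT3A. These 3 values lay between the 5th and 95th percentile there (-0.13 and 0.43). In gene-rich cells TET1 had a rho of -0.34 with DNMT1, -0.26 with DNMT3A, 0.25 with UHRF1 and 0.24 with DNMT3B. The pairs that act together were weakly related, with 0.09 for DNMT1 and UHRF1 and -0.03 for DNMT3A and DNMT3B. Among gene-poor cells DNMT1 and TET1 had a rho of 0.02 and DNMT3A and DNMT3B one of 0.33.

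Scores for S phase and G2/M were the mean log2(TPM + 1) of 14 and 12 genes. In gene-rich cells, the S phase score had a rho of 0.33 with UHRF1 and 0.31 with DNMT1, higher than 98.4% and 97.7% of 9572 genes, and of 0.09 with DNMT3B, -0.12 with DNMT3A and -0.17 with TET1. The G2/M score had a rho of 0.31 with DNMT3A, higher than 95.8% of genes, and of -0.29 with UHRF1, lower than all but 1.44% of them. The 2 scores had a rho of -0.53 with each other in these cells, so the values of a member with both are not independent. In gene-rich cells, the 2 members with the highest rho to the S phase score were those whose start windows held the E2F-type letters. A link between the letters and this rho was not tested, and DNMT3L had no window. Over all 121 cells the highest rho was that of TET3 (0.39), followed by UHRF1 and TET1 (both 0.27) and DNMT3B (0.26), with 0.13 for DNMT1. Among the 51 long telomere cells of this set the rho of UHRF1 with the S phase score was 0.32, and that of DNMT1 was 0.18, below the 0.30 of DNMT3L, which was above 0 in few cells. Among gene-poor cells the S phase score had a rho of 0.17 with both, and the highest, 0.36, was with TET1.

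**Figure D5:**
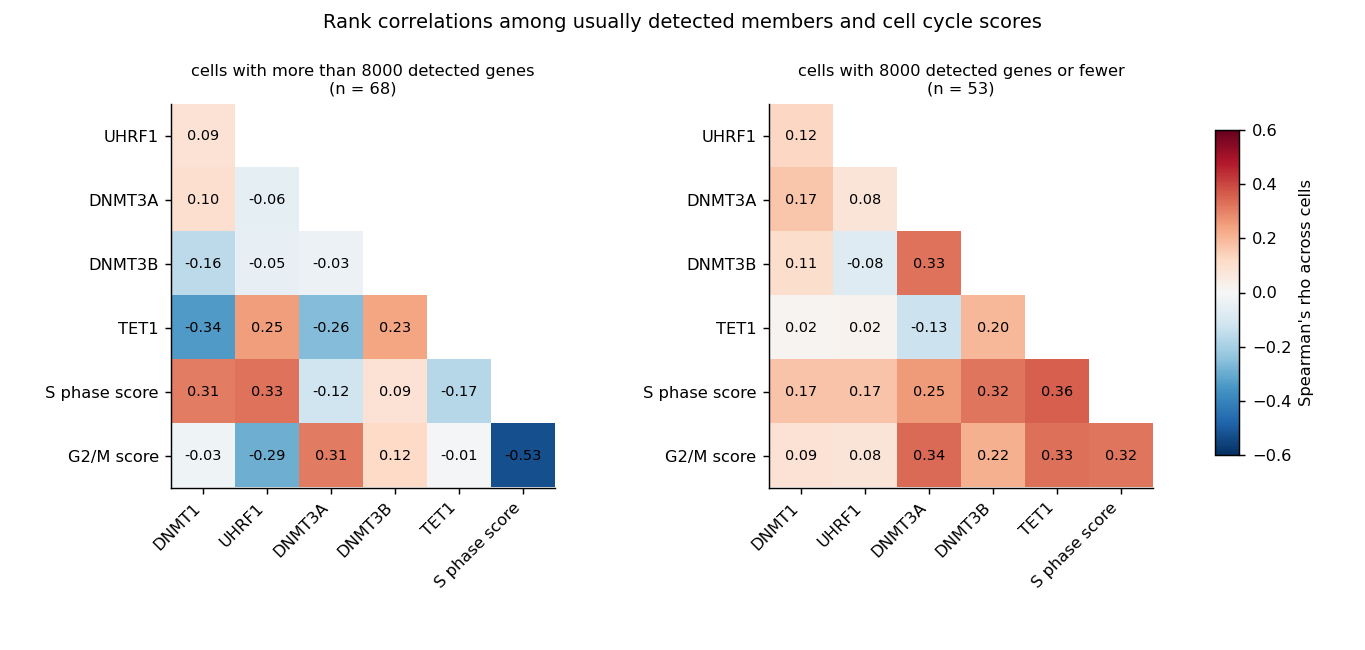
Spearman's rho across cells among the 5 usually detected members and the S phase and G2/M scores, in 68 gene-rich cells (left) and 53 gene-poor cells (right). On the left UHRF1 and DNMT1 have positive values with the S phase score (0.33 and 0.31) and TET1 a negative one with DNMT1 (-0.34). On the right all values with either score are positive.

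The genes most like each usually detected member were sought by rho in the 68 gene-rich cells, among 9585 genes. The highest of so many values is high even among unrelated genes. The 95th percentile of rho over the genes searched was 0.31 for TET1, 0.27 for DNMT1, 0.24 for DNMT3A, 0.23 for DNMT3B and 0.21 for UHRF1. TET1 was closest to GPR160 and UBE4A (both 0.58) and ANKRD46 (0.55). DNMT1 was closest to FKBP3 (0.53), HMGB1 (0.52), an abundant chromatin protein, and PPIG (0.50). DNMT3A was closest to SNAPC5 (0.53), MRPL37 (0.47) and ESF1 (0.44). DNMT3B was closest to TTC37 (0.50), QSER1 and MTMR14 (both 0.44), and UHRF1 to GOLM1 (0.42) and ENTPD7 (0.41). Among gene-poor cells the rho of these genes with their member ran from -0.11 for SNAPC5 to 0.38 for UBE4A.

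Genes that work with the members were read from lists by role. Their counts stand against 38.9% of all genes called higher in the long and 3.75% in the short group, with a median difference of 0.70, and in gene-rich cells against 11.4%, 9.37% and a median of 0.08. Of 13 maintenance partners, 12 reached a mean TPM of 1 and 7 were called higher in long and 0 in the short group, with a median difference of 1.12. PCNA, the replication clamp that DNMT1 binds, had the highest mean (428 TPM), and a difference of 2.15. CDCA7, which with the remodeler HELLS is needed for methylation of repeats, had a difference of 4.14, and KIAA0101, a PCNA-binding factor, one of -0.56. HELLS itself had a mean of 103 TPM and a difference of 0.98. In gene-rich cells CDCA7 differed by 0.26 and PCNA by -0.16, and 2 partners were called higher in long and 1 in the short group, with a median of 0.25.

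Of 8 genes of the methyl-CpG reader families, not all of which need read the mark, 7 were tested. Of these 2 were called higher in the long group, with a median of 0.61, below that of all genes. In gene-rich cells 1 was called higher in the long and 1 in the short group, with a median of 0.05. MBD4, a glycosylase that reads methylated CpG, was the most abundant (36.4 TPM), ZBTB33 had a difference of 2.14 and MBD3 one of -0.58. Of 18 demethylation and base excision partners in the table, 16 were tested, 11 called higher in long and 1 in the short group, with a median of 1.48. In gene-rich cells 2 were called higher in the long and 2 in the short group, and the median was -0.11. The abundant ones were APEX1 (355 TPM), the endonuclease of base excision repair, IDH1 (288 TPM), which makes a cosubstrate of the TET enzymes, and PARP1 (162 TPM), whose difference was 0.23. POLB, the repair polymerase, differed by 3.85. Among the 8 methyl donor genes 6 were called higher in the long group, with a median of 1.95. These include AHCY (2.53), which clears the product of methyl transfer, and MAT2A (2.49), which makes the methyl donor. In gene-rich cells 1 of these 8 was called, and their median was -0.20.

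Genes under known control of methylation were read in the same way. Of 12 germline genes whose promoters are usually methylated in somatic cells, 4 reached a mean TPM of 1, and 0 were called in either direction. HORMAD1, PIWIL1 and ASZ1 were listed at 0 in all 121 cells, whereas SOHLH2 was detected in 28.1%, TEX101 in 27.3% and DAZL in 16.5% of cells. The highest of these differences was 0.69 for DAZL and the lowest -0.97 for TEX101. Of 13 imprinted genes 10 were tested and 6 called higher in the long group, with a median of 1.14. SNRPN was detected in every cell, with a mean of 882 TPM, followed by NNAT (148 TPM) and MEST (137 TPM), of which MEST had the highest difference, 2.71, and KCNQ1OT1 the lowest, -0.89. In gene-rich cells 1 of the imprinted genes was called, the median was 0.17 and MEST differed by 0.40. Neither list measures methylation itself, which was not part of the assay.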

How the data were processed

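The authors captured polyadenylated RNA of single WA26 cells with a biotinylated oligo-dT primer, made cDNA by the Smart-seq2 protocol and sequenced 50-bp single-end reads. According to the study's methods, reads were mapped to hg19 and counted per RefGene gene, and the submitters' processing notes also name RSEM. The deposited table holds TPM made by the authors, with 2 decimals and 1 column for each of 121 cells, all mapped to a label. Rows summed to between 979828 and 997050 per cell over the 25610 genes read, and 1 further row was cut off. The depth per cell cannot be read from the table, and read totals of the cells were not used here. Groups were taken from the sample titles, and telomere ratios of single cells were not used here.

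Levels were put on a log2(TPM + 1) scale, which understates differences of low genes. A gene was detected above TPM 1 and called at a difference of group means of at least 1, among 13439 genes whose mean TPM reached 1. No p-value was computed, since each group counts as 1 sample. The members, the gene lists and the border of 8000 detected genes were chosen with earlier results of these data known. Of each list at most the 3 genes of highest mean and those of highest and lowest difference are named, with HELLS, MAT2A, the genes listed at 0 and the markers that reached a mean TPM of 1 chosen after their values were seen. The genes most like a member are the 3 of highest rho. Some genes that these rules select are not reported here. Scores for S phase and G2/M are means of log2(TPM + 1) without the members. Alternatives were other pseudocounts, detection limits, medians, rescaling, subsets of cells, leaving out each cell in turn and a linear term for detected genes. The group difference and the rank correlation were tested on simulated data first, and the other calculations were not. Positions are from GENCODE on GRCh37 and start windows from RefSeq on GRCh38.p14. Software versions were 3.11.15 for Python, 3.10.9 for matplotlib, 2.3.3 for pandas, 1.17.1 for scipy and 2.4.6 for numpy.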

Additional observations from a re-analysis of the deposited data

How the results depend on the processing

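Of 201 alternative values, 160 kept within their limits, 39 moved further and 2 were counted as turned in sign. The limits were 1 SD across cells for differences and a shift of 0.2 with no change of a called sign for correlations. They were 1.5 times for numbers of genes and the exact interval for percentages. Further values changed sign but were counted as kept or moved, among them the difference of DNMT3A, -0.42 in gene-rich cells. The SD across cells is a wide limit, and DNMT1 at 0.019 after rescaling by the median ratio counted as kept. Restricting the comparison to the 54 long and short telomere cells with more than 8000 detected genes moved the long minus short difference of DNMT3B to 0.24 and of DNMT3L to -1.26 and turned that of TET1 to -0.40. In these cells 1532 genes were called higher in long and 1259 higher in short telomere cells, against 5225 and 504 in all cells. Higher in short were 990 genes in the cells with 8000 detected genes or fewer and 106 when a mean TPM of 10 was required. In the cells with 8000 detected genes or fewer, the rho of DNMT1 was 0.11 with DNMT3B and turned to 0.015 with TET1, that of UHRF1 with TET1 was 0.021, and that of DNMT3A with DNMT3B was 0.33. Over all cells DNMT3A with DNMT3B had 0.18, TET1 had 0.27 with the S phase and 0.30 with the G2/M score, and UHRF1 had 0.012 with the G2/M score. The cause was not tested.

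Leaving out each cell in turn gave long minus short differences of 0.46 to 1.01 for DNMT1, 0.39 to 0.86 for UHRF1, 0.41 to 0.89 for DNMT3A, 1.64 to 2.19 for DNMT3B, -0.25 to 0.03 for DNMT3L, 1.15 to 1.56 for TET1, -0.07 to 0.06 for TET2 and -0.01 to 0.18 for TET3. Rescaling by the median ratio moved the median difference of all genes from 0.70 to 0.47, and leaving out ribosomal protein genes moved it to 0.80. The 26 moved percentages were shares of cells with a member detected. No paired analysis was possible because the results come from no test and a shared number in the titles does not tie single cells of different groups. With 3 short telomere cells above 8000 detected genes, values of that group rest on few cells, and a TPM of 0 may be a transcript lost in capture.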
